A study of Gallus gallus with 10 samples.

Results

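A set of 33 chicken genes was abundant and of similar level in all 3 brain tissues of this series, namely the induced optic tectum (iTeO), the natural optic tectum (TeO) and natural cerebral cortex (NCC). A gene belonged to the set when its mean level reached at least 1000 counts per 1000000 chicken counts (CPM) in each of the 3 tissues and its largest tissue mean was less than 2 times its smallest. Of 24881 chicken genes in the count table, 38 passed the level threshold in all tissues, and 33 of these also passed the limit on the fold. The genes were thus chosen by their tissue mean CPM, and their levels and differences between tissues are given as descriptions, with no test.

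Embryos of Hy-Line W36 hens, all labelled wild type, supplied the 10 total RNA libraries. The 4 iTeO libraries came from ectopic tectum of embryos that had received human neuroepithelial cells (NECs) in the anterior diencephalon at stage HH11. In 2 of them, iTeO (ES), the donor cells had been made from the hESC line RH6, a human embryonic stem cell line, and in 2, iTeO (iPS), from human induced pluripotent stem cells (hiPSCs). The study's figure legend for these tissues names the hiPSC line hiPSC4, and the 3-day protocol of making NECs for both groups. The 3 TeO and 3 NCC libraries were made from natural tissue, and the sources used here do not say whether a library held tissue of a single embryo or of several. The study's methods state a default time after implantation at which chimeric embryos were killed, but do not tie it to the RNA libraries, and the age of the TeO and NCC tissue is not given in the sources used here. P-values therefore measure only the spread between these libraries, which may be technical. Human genes, 58302 of them in the same table, took between 0.123% and 0.371% of all counts and were left out of CPM. The natural chicken tissues held 0.123% to 0.137%, so a share of that size is no sign of human cells. The source of these counts was not tested.

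The optic tectum is the layered roof of the midbrain that receives visual input from the retina in birds, and the cerebral cortex belongs to the forebrain. In any tissue a small number of genes supplies a large part of the reads of an RNA library. In total RNA these can include non-coding and organelle transcripts beside the messengers of the cytoskeleton, of translation and of energy metabolism. The files list genes by Ensembl identifier and do not pair the identifiers with symbols, and none of them matched the reference table used here (0 matched). What the 33 genes encode, and which cell types they mark, is therefore not stated, and they are named by identifier. A gene's CPM also grows with its length, which was not used, so the order of levels between genes is an order of counts and not of RNA molecules.

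The 33 genes together took 24.4% and 21.6% of chicken counts in the 2 iTeO (ES) libraries and 24.2% and 21.0% in the 2 iTeO (iPS) libraries. They took 31.1%, 31.5% and 28.9% in TeO, and 28.6%, 27.9% and 30.2% in NCC. All 4 iTeO libraries lay below every TeO and NCC library, while the TeO and NCC libraries overlapped. The mean share was 22.8% ± 1.74 in iTeO (SD, n = 4), 30.5% ± 1.39 in TeO (SD, n = 3) and 28.9% ± 1.17 in NCC (SD, n = 3). These are relative amounts in bulk tissue, where fewer cells that hold a transcript and less of the transcript per cell cannot be told apart.

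A single gene, ENSGALG00000043598, made up most of this share and was the most counted gene in each of the 10 libraries. It took 15.2% and 13.4% of chicken counts in iTeO (ES) and, for iTeO (iPS), 15.2% and 13.3%, against 21.4%, 22.0% and 19.8% in TeO. In NCC it took 19.0%, 18.5% and 20.2%. No iTeO library overlapped a library of either natural tissue, and TeO and NCC overlapped. The means were 14.3% ± 1.06 in iTeO (SD, n = 4), 21.1% ± 1.14 in TeO and 19.2% ± 0.867 in NCC (SD, n = 3 each). In the library with the fewest chicken counts, the first iTeO (iPS) library with 7809002, the 95% Wilson interval of this share ran between 15.15% and 15.21%, so counting error was far below the spread between libraries. Such intervals cover counting error only.

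**Figure D1:**
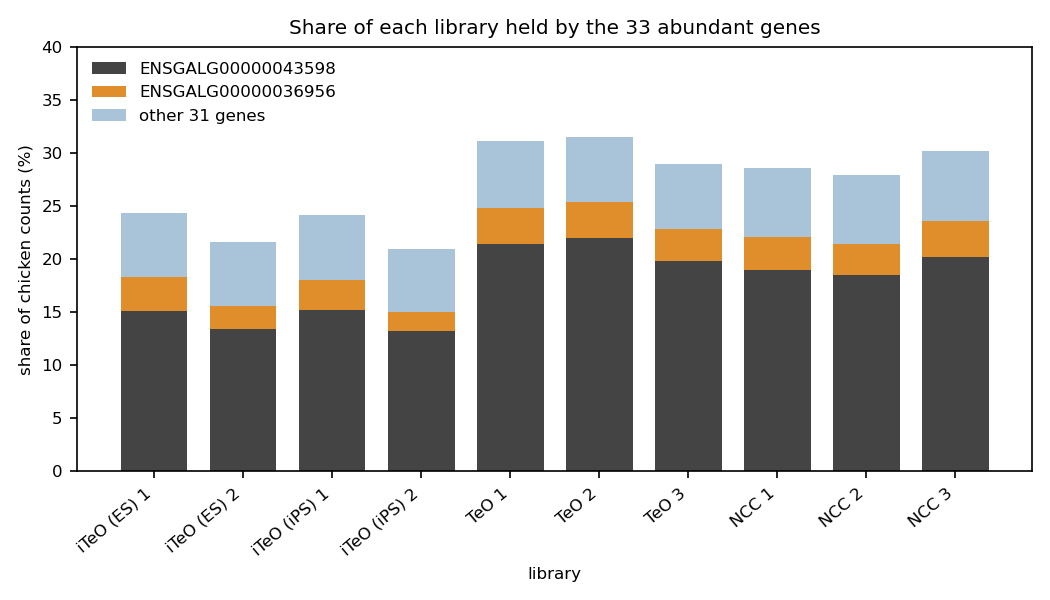
Share of chicken counts (%, vertical axis from 0) that the 33 genes took in each of the 10 libraries, split into the most counted gene, the second gene and the other 31. The iTeO bars reach 21.0% to 24.4%, the TeO bars 28.9% to 31.5% and the NCC bars 27.9% to 30.2%. The top segment of the other 31 genes is between 5.92% and 6.57% in every bar and is largest in the NCC bars.

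The gene ENSGALG00000036956 stood in second place in each of the 10 libraries. Its share was 3.20% and 2.18% in iTeO (ES) and, for iTeO (iPS), 2.87% and 1.78%, against 3.42%, 3.37% and 3.01% in TeO and 3.18%, 2.95% and 3.44% in NCC. Of the iTeO libraries only the first iTeO (ES) library reached into the range of both natural tissues, and the others lay below every TeO and NCC library. The iTeO (ES) and iTeO (iPS) libraries overlapped each other. Its mean was 2.51% ± 0.645 in iTeO (SD, n = 4), 3.26% ± 0.226 in TeO and 3.19% ± 0.249 in NCC (SD, n = 3 each). Set against the most counted gene, it was 21.1%, 16.3%, 18.9% and 13.4% of that gene's counts in the 4 iTeO libraries, 15.1% to 15.9% in TeO and 15.9% to 17.1% in NCC. The ratio of these genes to each other thus varied over a wider range among iTeO libraries than among those of either natural tissue.

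The other 31 genes held 6.03% ± 0.0849 of chicken counts in iTeO (SD, n = 4), 6.16% ± 0.0902 in TeO and 6.504% ± 0.0580 in NCC (SD, n = 3 each). Every NCC library, at 6.46% to 6.57%, lay above every iTeO library, at 5.92% to 6.13%, and every TeO library, at 6.10% to 6.27%. The iTeO and TeO libraries overlapped. Of the difference of −7.74 percentage points between the member share in iTeO and in TeO, the most counted gene made up −6.85 points, the second gene −0.756 and the other 31 genes −0.134. Between iTeO and NCC the difference was −6.10 points, of which −4.95, −0.681 and −0.474 belonged to the top gene, the second gene and the other 31 in that order. TeO exceeded NCC by 1.64 points, with 1.90 points in the top gene, 0.0752 in the second gene and −0.340 in the other 31. In each pair of tissues the most counted gene therefore held the largest piece of the difference in share.

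A library in which a single gene takes more counts leaves fewer for the rest. The number of most counted chicken genes that together reached 50% of counts was 590, 639, 571 and 646 in the 4 iTeO libraries, 362, 349 and 419 in TeO and 425, 437 and 390 in NCC. The iTeO libraries needed more genes than any library of natural tissue.

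The label of the set as the most abundant genes holds in part. At a mean of at least 1000 CPM there were 55 genes in iTeO, 46 in TeO and 64 in NCC, and the 33 genes filled 23, 26 and 25 of the top 33 places of these tissues. A further 5 genes passed the level threshold in all tissues and differed 2-fold or more. The furthest apart was ENSGALG00000013640, with means of 4323 CPM in iTeO, 13967 in TeO and 1048 in NCC. The 33 genes ranked no lower than place 57 in any library, and each had at least 7943 counts there. In the first iTeO (ES) library 32 of them reached 1000 CPM, and in the other 9 libraries all 33 did. The set is thus the shared abundant genes, and some genes more abundant than several of its members are not in it.

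Both thresholds passed close to single genes. The member nearest the level threshold was ENSGALG00000012462, with 1031 CPM in iTeO, 1046 in TeO and 1258 in NCC, and the gene just outside it was ENSGALG00000005139, with 1150, 995 and 1047 CPM in the same tissues. For the fold, the member nearest the limit was ENSGALG00000033212, at 1846 CPM in iTeO, 3289 in TeO and 3548 in NCC, which is 1.92-fold between highest and lowest. The gene just outside was ENSGALG00000010023, at 2640, 1987 and 4094 CPM in the same tissues, or 2.06-fold.

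Below the first and second genes, the levels lay close together. The means of the other 31 genes were between 1000 and 5000 CPM in all 3 tissues. Next by mean level was ENSGALG00000032142, with 5020 and 4039 CPM in iTeO (ES) and, for iTeO (iPS), 4396 and 3546, against 4167, 4388 and 3879 in TeO and 3624, 3868 and 4840 in NCC. Its libraries overlapped between all pairs of tissues, and its tissue means of 4250 CPM in iTeO, 4145 in TeO and 4111 in NCC differed by less than the SD of 620 CPM among iTeO libraries. It was followed by ENSGALG00000002606, with 3567, 3939, 3760 and 3908 CPM in the 4 iTeO libraries, 3311, 3248 and 3269 in TeO and 3729, 3638 and 3419 in NCC. For this gene the iTeO libraries all lay above TeO and overlapped NCC on the CPM scale. Scaling by trimmed means of M-values (TMM, described below) changed this. The iTeO libraries then overlapped TeO, at a log2 fold change of 0.01 ± 0.06 (SE), and all lay below NCC, at −0.14 ± 0.06.

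Further down the order, ENSGALG00000029500 averaged 2878 ± 372 CPM in iTeO (SD, n = 4), 3725 ± 232 in TeO and 3499 ± 155 in NCC (SD, n = 3 each). ENSGALG00000026445 averaged 3070 ± 270 CPM in iTeO, 2434 ± 154 in TeO and 2942 ± 238 in NCC. Relative to TeO the iTeO mean CPM was thus lower for the first of these genes and higher for the other. With TMM scaling ENSGALG00000029500 stood at a log2 fold change of −0.57 ± 0.10 (SE), with all iTeO libraries below TeO. ENSGALG00000026445 stood at 0.13 ± 0.08 on that scale, and its iTeO and TeO libraries overlapped. In ENSGALG00000026445 the iTeO libraries, at 2819 to 3445 CPM, overlapped the NCC libraries, at 2723 to 3194. The least variable gene among the iTeO libraries was ENSGALG00000008425, with 1895, 1939, 1950 and 1945 CPM there, 2389, 2335 and 2432 in TeO and 1738, 1674 and 1695 in NCC. On the CPM scale its 3 tissues did not overlap. With TMM scaling its iTeO and NCC libraries overlapped, at a log2 fold change of −0.04 ± 0.05 (SE).

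**Figure D2:**
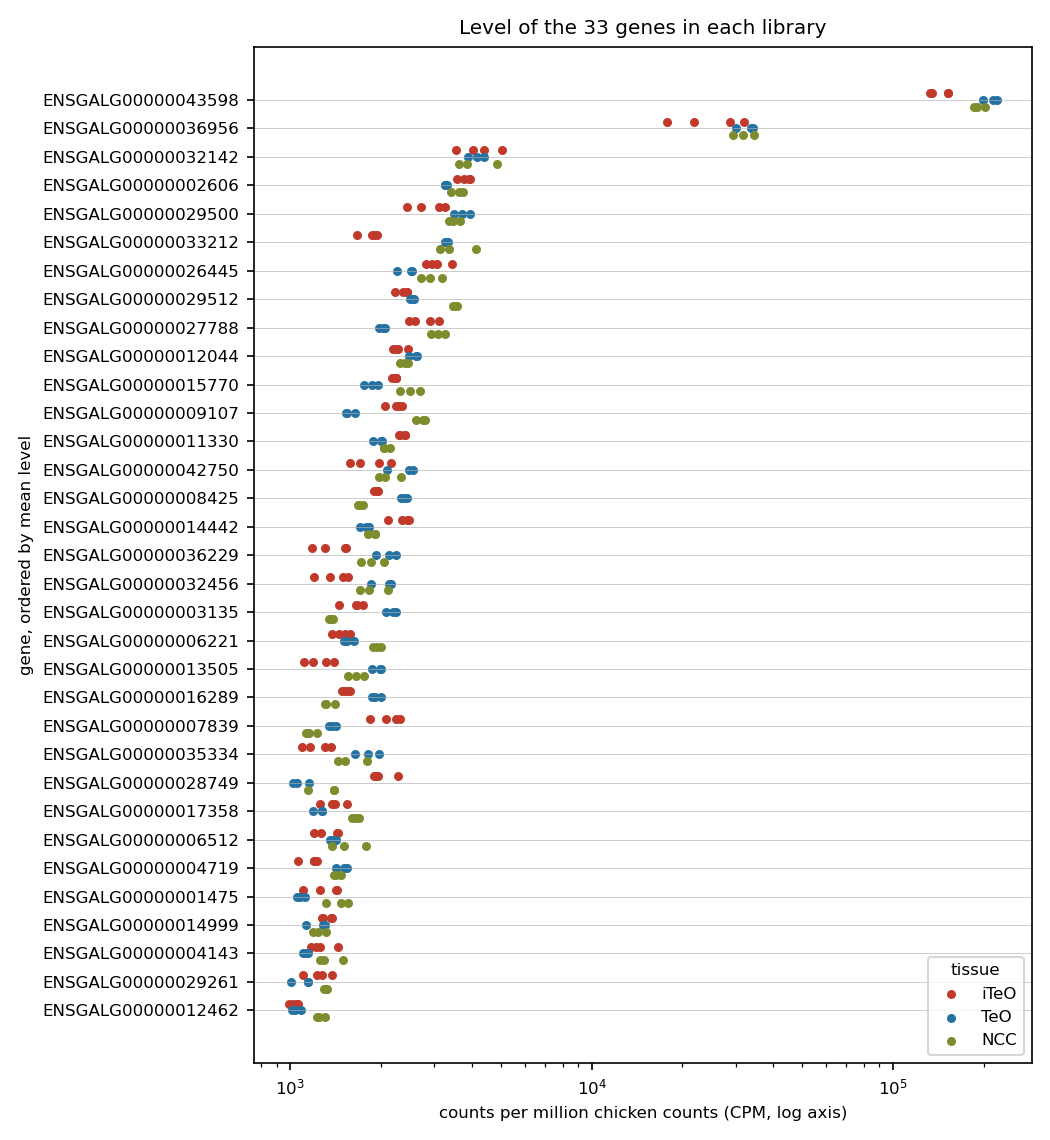
Level of each of the 33 genes (rows, ordered by mean level) in the 10 libraries, in CPM on a log axis, with iTeO, TeO and NCC in separate colours and each point a library. The first gene lies between 132612 and 220365 CPM and the second between 17811 and 34446, while the other 31 lie between 991 and 5020 CPM.

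Over the 33 genes the highest mean was found in iTeO for 8, in TeO for 13 and in NCC for 12. The lowest mean was found in iTeO for 15, in TeO for 13 and in NCC for 5. The median ratio of highest to lowest tissue mean was 1.33, with 8 genes at 1.5-fold or more. The ranks of the 33 genes were alike within a tissue, with Spearman's rho across the 33 genes of 0.9004 to 0.972 between iTeO libraries (6 pairs), 0.975 to 0.992 between TeO libraries and 0.955 to 0.970 between NCC libraries (3 pairs each). Between tissues rho averaged 0.711 for iTeO with TeO, 0.757 for iTeO with NCC and 0.814 for TeO with NCC. These correlations describe the order across genes, which are not independent replicates.

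Set gene by gene, the shifts between iTeO and TeO ran both ways. Their small size on the CPM scale was set by the rule, which admits only genes with tissue means less than 2-fold apart. On the CPM scale 15 of the 33 genes had a higher and 18 a lower mean in iTeO than in TeO, with a median log2 ratio of −0.05, while the median over all tested genes was 0.21. In 10 genes every iTeO library lay above every TeO library and in 13 every one lay below, where 34.5% and 10.8% of the 13999 tested genes did so. The selection rule used this contrast, so nothing is read from these counts. With effective library sizes from trimmed means of M-values (TMM), which bring the median over all tested genes to 0.01, the split was 10 higher and 23 lower and the median −0.25. With a library left out the CPM median lay between −0.083, without the first iTeO (iPS) library, and −0.032, without the first TeO or the second iTeO (iPS) library.

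Highest in iTeO relative to TeO was ENSGALG00000028749. It had 1894 and 2285 CPM in iTeO (ES) and, for iTeO (iPS), 1907 and 1951, against 1052, 1019 and 1156 in TeO. All iTeO libraries lay above all TeO libraries, with a log2 ratio of mean CPM of 0.90 and a TMM-scaled log2 fold change of 0.70 ± 0.08 (SE). The next was ENSGALG00000007839, with 1833, 2311, 2247 and 2077 CPM in the 4 iTeO libraries and 1346, 1376 and 1419 in TeO, which gave a log2 ratio of 0.62 on CPM and 0.42 ± 0.07 with TMM scaling. For both genes the direction was the same on either scale.

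Lowest in iTeO relative to TeO was ENSGALG00000033212, with 1914 and 1664 CPM in iTeO (ES) and, for iTeO (iPS), 1940 and 1868, against 3272, 3340 and 3256 in TeO. Its log2 ratio was −0.83 on CPM and −1.03 ± 0.09 (SE) with TMM scaling, with a clear gap between the libraries of the 2 tissues. ENSGALG00000013505 came next, with 1106, 1401, 1313 and 1194 CPM in the 4 iTeO libraries and 1984, 1999 and 1860 in TeO, a log2 ratio of −0.64 on CPM and −0.84 ± 0.08 with TMM scaling. The most counted gene, ENSGALG00000043598, stood at −0.57 on CPM and −0.77 ± 0.08 with TMM scaling in the same contrast.

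Between iTeO and NCC, 11 of the 33 genes had a higher and 22 a lower mean in iTeO, with a median log2 CPM ratio of −0.17, against 0.23 over all tested genes. Every iTeO library lay above every NCC library for 7 genes and below for 14, where 38.9% and 15.8% of tested genes did so. This contrast was also used by the rule, and nothing is read from the counts. With TMM scaling 4 were higher and 29 lower, with a median of −0.39 against 0.01 over all tested genes.

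The same pair of genes stood at the upper end. ENSGALG00000007839 had 1150, 1222 and 1128 CPM in NCC, below all 4 iTeO libraries given above, with a log2 ratio of iTeO over NCC of 0.86 on CPM and 0.64 ± 0.08 (SE) with TMM scaling. For ENSGALG00000028749, with 1395, 1396 and 1144 CPM in NCC, it was 0.62 on CPM and 0.40 ± 0.08 with TMM scaling. The same iTeO libraries enter this contrast and the preceding one, so these values are not separate evidence. At the lower end ENSGALG00000033212 had 4130, 3146 and 3369 CPM in NCC, and a ratio of −0.94 on CPM and −1.16 ± 0.09 with TMM scaling. ENSGALG00000029512, with 2446, 2358, 2433 and 2232 CPM in the 4 iTeO libraries and 3480, 3574 and 3459 in NCC, gave −0.57 on CPM and −0.78 ± 0.05 with TMM scaling. No iTeO library overlapped an NCC library for any of these 4 genes.

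The natural tissues differed from each other in other members of the set. Between TeO and NCC, 15 genes had a higher and 18 a lower mean in TeO, with a median log2 CPM ratio of −0.08 and a TMM-scaled median of −0.10, against 0.02 and 0.01 over all tested genes. Without the second TeO library the CPM median was −0.049. Every TeO library lay above every NCC library for 6 genes and below for 13, where 27.7% and 25.0% of tested genes did so, and the rule used this contrast too. Highest was ENSGALG00000003135, with 2084, 2185 and 2235 CPM in TeO and 1381, 1345 and 1374 in NCC, a log2 ratio of 0.67 on CPM and 0.65 ± 0.07 (SE) with TMM scaling. ENSGALG00000016289 followed with 1915, 1871 and 1997 CPM in TeO and 1407, 1306 and 1314 in NCC, or 0.52 on CPM and 0.50 ± 0.06 with TMM scaling. Levels of both genes were well separated between these tissues, with the iTeO means of 1625 CPM and 1527 CPM between those of TeO and NCC. With TMM scaling iTeO did not stand apart from NCC in these genes. The log2 fold change of iTeO over NCC was then 0.03 ± 0.06 for ENSGALG00000003135 and −0.03 ± 0.05 for ENSGALG00000016289, with overlapping libraries.

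Lowest in TeO relative to NCC was ENSGALG00000009107, with 1643, 1536 and 1546 CPM in TeO and 2762, 2807 and 2614 in NCC. Its log2 ratio was −0.79 on CPM and −0.81 ± 0.07 (SE) with TMM scaling. ENSGALG00000027788 had 1964, 2036 and 2065 CPM in TeO and 2936, 3084 and 3267 in NCC, with a ratio of −0.62 on CPM and −0.63 ± 0.08 with TMM scaling. The iTeO means of these genes, 2235 CPM and 2768 CPM, again lay between those of TeO and NCC. The most counted gene overlapped between TeO and NCC, at 0.14 on CPM and 0.12 ± 0.09 with TMM scaling.

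**Figure D3:**
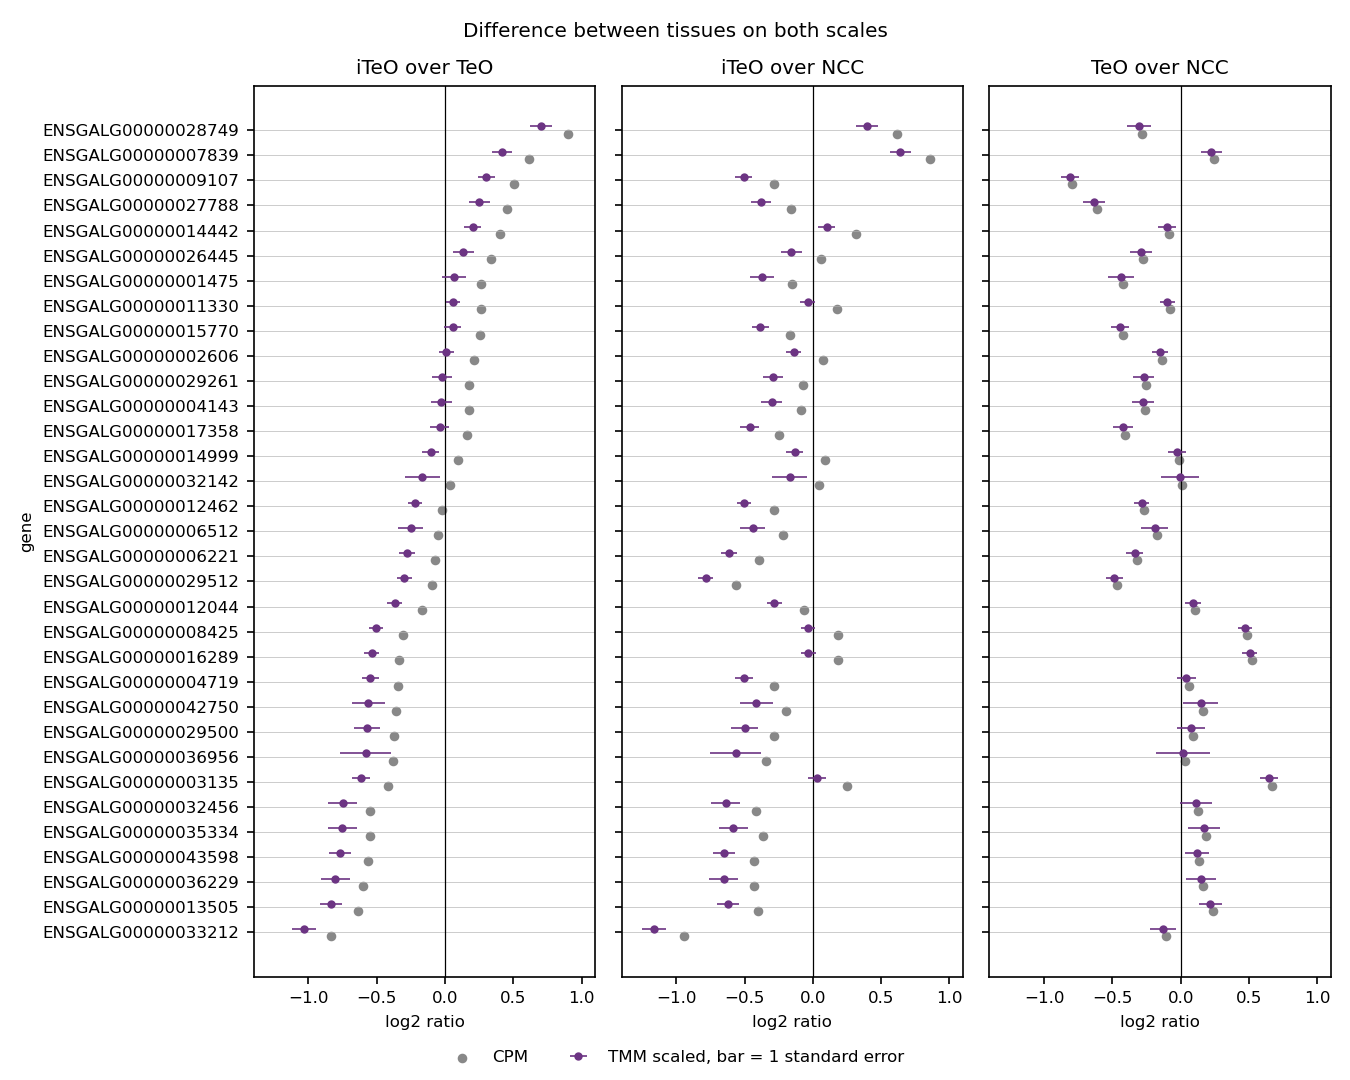
Log2 ratio of each of the 33 genes between tissues (horizontal axis; rows ordered by iTeO over TeO), as the ratio of mean CPM and as the TMM-scaled fold change with 1 standard error. In both contrasts with iTeO the TMM-scaled points lie to the left of the CPM points. With TMM scaling 23 of 33 genes are lower in iTeO than in TeO and 29 of 33 lower than in NCC. Of all 13999 tested genes 6865 and 6920 are lower in these contrasts on the same scale. The selection rule used both contrasts, so nothing is read from these counts.

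Most of the 33 genes varied more between iTeO libraries than between libraries of either natural tissue. The median SD of log2 CPM within a tissue was 0.12 in iTeO (4 libraries, ES and iPS pooled), 0.056 in TeO and 0.065 in NCC (3 libraries each). Counting error alone would give a median of about 0.01 in each. The SD was largest in iTeO for 21 of the 33 genes, above that of TeO for 27 and above that of NCC for 22. The same order held for 1891 other genes of at least 100 CPM, whose median SD was 0.12 in iTeO, 0.064 in TeO and 0.073 in NCC, so a wider spread in iTeO was also seen outside the set. The 2 genes with the largest SD in iTeO were ENSGALG00000036956, at 0.38, and ENSGALG00000032142, at 0.21, and the smallest was that of ENSGALG00000008425, at 0.019.

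Part of this spread was shared. For each gene the tissue mean of log2 CPM was subtracted from each library, and the deviations were compared with those of the most counted gene over the 10 libraries. The 7 genes ENSGALG00000036229, ENSGALG00000029500, ENSGALG00000042750, ENSGALG00000032456, ENSGALG00000036956, ENSGALG00000035334 and ENSGALG00000032142 moved with the most counted gene, with Pearson's r between 0.842 and 0.968. In the other 25 genes of the set r lay between −0.867 and 0.509, and 19 of them had an r below 0. The median r over the 3758 genes with a mean of at least 50 CPM was −0.31, so an r below 0 was common and not particular to these 25. The limit of 0.8 was set after these values were seen, so this grouping is a description with no test. The deviations share their library totals, and a library rich in the top gene leaves fewer counts for the rest. With the most counted gene left out of the totals the count of genes that moved together was again 8, the top gene included. That change raises the other genes most in libraries rich in the top gene. It could thus hardly lower the count, and nothing is read from it.

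The 8 genes were picked by r over these same libraries, which by itself favours a shared side of the tissue mean. Library by library, all 8 of these genes lay on the same side of their tissue mean. They were above it in the first iTeO (ES), the first iTeO (iPS), the first and second TeO and the third NCC library, and below it in the other 5. In the first iTeO (ES) library the 8 deviations ran between 0.092 and 0.39 on the log2 scale, and in the second iTeO (iPS) library between −0.46 and −0.10. In natural tissue they ran between 0.0080 and 0.094 in the second TeO library, for example, and reached 0.25 in the third NCC library. Some deviations were close to none. ENSGALG00000029500 stood at 0.0014 in the first TeO library, where counting error alone would give an SD of about 0.0071 in TeO. ENSGALG00000036956 stood at −0.0034 in the first NCC library, against about 0.0024 in NCC. The side of the mean is thus not firm for these values. Within iTeO, the libraries above the mean were those with the larger share of human counts, 0.371% in the first iTeO (ES) and 0.299% in the first iTeO (iPS) library, against 0.129% and 0.124% in the second libraries. In TeO and NCC the share lay between 0.123% and 0.137%. The part of human counts in this pattern was not tested.

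The 8 genes took 18.1% ± 1.85 of chicken counts in iTeO (SD, n = 4), 26.0% ± 1.46 in TeO and 23.9% ± 1.25 in NCC (SD, n = 3 each). The other 25 genes took 4.73% ± 0.134 in iTeO, 4.54% ± 0.102 in TeO and 4.998% ± 0.0951 in NCC. The median log2 ratio of the 8 genes was −0.46 between iTeO and TeO on CPM and −0.66 with TMM scaling. Between iTeO and NCC it was −0.35 and −0.57, and between TeO and NCC it was 0.13 and 0.12. The median of the other 25 genes was 0.16 on CPM and −0.04 with TMM scaling between iTeO and TeO, so its sign changed with the scale. Between iTeO and NCC the median of these 25 genes was −0.08 on CPM and −0.30 with TMM scaling, and between TeO and NCC it was −0.17 and −0.19, opposite in sign to that of the 8.

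Some of the 8 genes kept a nearly constant ratio to the most counted gene across tissues and others did not. ENSGALG00000036229, named here after its values were seen, had between 0.890% and 1.01% of the top gene's counts in all 10 libraries. ENSGALG00000032142 had 2.67% to 3.31% of them in iTeO, 1.94% to 1.99% in TeO and 1.91% to 2.40% in NCC. For ENSGALG00000032142 the ratio was thus higher in every iTeO library than in any library of natural tissue, although its own CPM overlapped between all tissues.

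Outside the set, genes that reached the same r with the most counted gene were few. Of 3758 genes with a mean of at least 50 CPM, 25 reached an r of 0.8, which is 0.665%, the 8 genes above included. Among the other 17 was ENSGALG00000032079, which passed the level threshold in all tissues but not the fold, with means of 1681 CPM in iTeO, 3738 in TeO and 3090 in NCC and an r of 0.893. Another was ENSGALG00000043768, at 845, 1279 and 1094 CPM in the same tissues, with an r of 0.899. Both had their lowest mean in iTeO and their highest in TeO, as the most counted gene did. This order was found for 9 of the 17 genes, while 4 of the 17 had their highest mean in iTeO. Genes with fewer counts carry more counting error, which can lower r. The 0.665% is therefore not comparable with 8 of the 33 genes of the set.

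**Figure D4:**
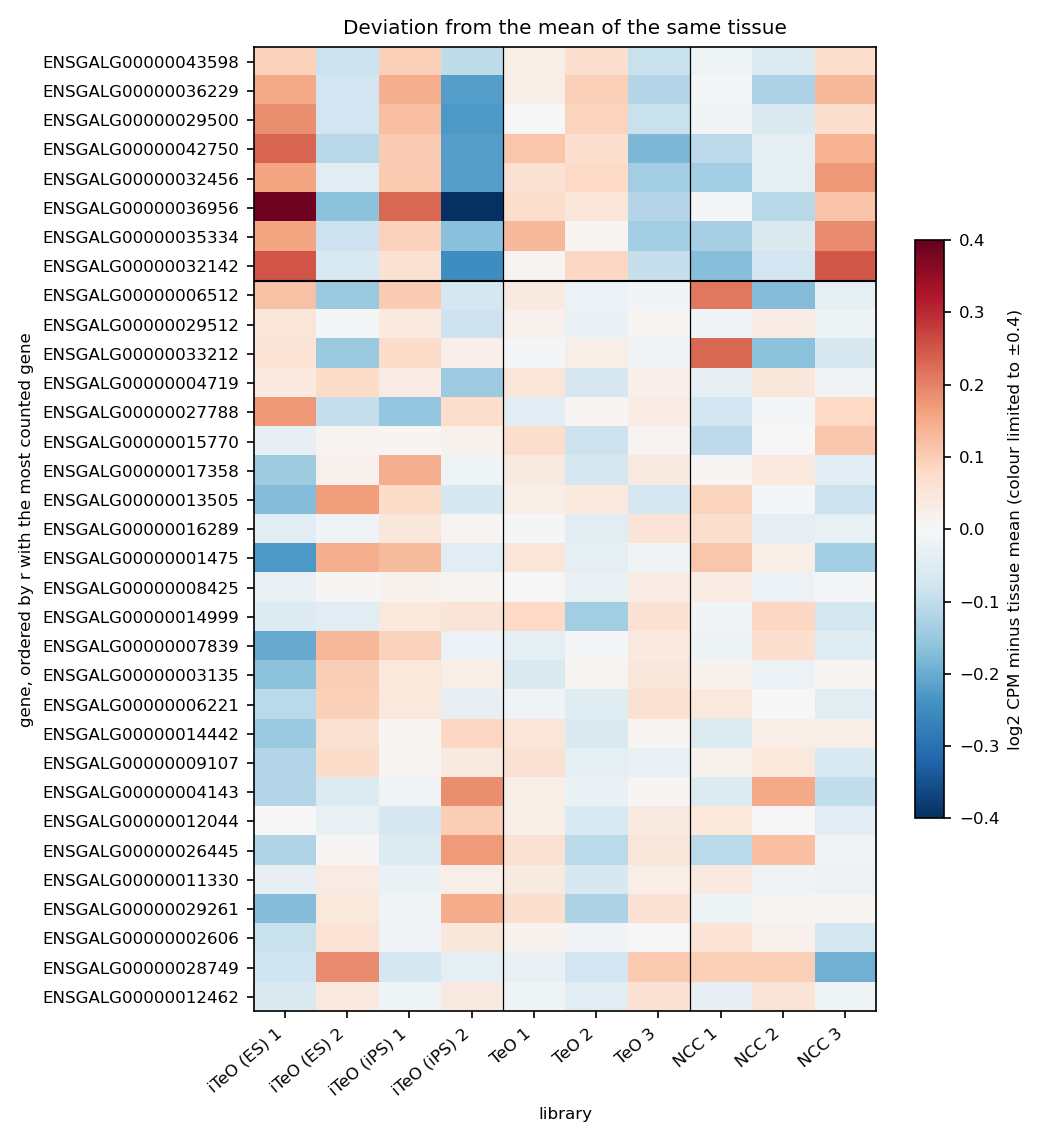
Deviation of each of the 33 genes (rows) from its own tissue mean in each of the 10 libraries (columns), in log2 CPM, with the colour limited at ±0.4 and rows ordered by their correlation with the most counted gene. The 8 genes above the horizontal line, picked by that correlation, lie above their tissue mean together in 5 libraries and below it together in the other 5.

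Setting iTeO (ES) against iTeO (iPS) asks whether the origin of the implanted cells went with a change in these genes. Each origin was a single cell line, so origin and line cannot be told apart. The rule pooled the 4 iTeO libraries and did not use this contrast, so it could be tested. No gene of the set was called: 0 of 33 passed an adjusted p of 0.05 in edgeR's quasi-likelihood test with Benjamini-Hochberg adjustment over 13999 genes, where 2 genes (0.0143%) did, and 0 of 33 had an unadjusted p under 0.05, where 9.18% of all tested genes did. DESeq2 also called 0 of the 33 genes, where it called 67 of all genes, and 0 had an unadjusted p under 0.05 there. The log2 fold changes of iTeO (ES) over iTeO (iPS) lay between −0.19 and 0.20, with a median of −0.04 in the set and 0.01 over all tested genes, and 11 were above and 22 below 0. Their standard errors were between 0.069 and 0.25, so differences of the size of these errors could not be resolved. With adjustment over 13999 genes, differences larger than these errors could go uncalled too.

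The lowest p belonged to ENSGALG00000004143, with 1167 and 1220 CPM in iTeO (ES) and, for iTeO (iPS), 1256 and 1442. Both iTeO (ES) libraries lay below both iTeO (iPS) libraries, with a log2 fold change of −0.19 ± 0.09 (SE) and an edgeR adjusted p of 0.560. ENSGALG00000017358 followed with 1258 and 1405 CPM in iTeO (ES) and, for iTeO (iPS), 1537 and 1373, which overlapped, and a log2 fold change of −0.14 ± 0.09 with an edgeR adjusted p of 0.664. These small changes moved with single libraries. Without the second iTeO (iPS) library the log2 fold change of ENSGALG00000004143 was −0.11. That of ENSGALG00000017358 was −0.24 without the second and −0.04 without the first iTeO (iPS) library, and −0.22 without the second and −0.07 without the first iTeO (ES) library. The most counted gene averaged 142881 CPM in iTeO (ES) and 142207 in iTeO (iPS), a log2 fold change of −0.01 ± 0.11 with an edgeR adjusted p of 0.992, and its sign depended on which iTeO library was left out (−0.12 to 0.11). The second gene, ENSGALG00000036956, had the highest fold change of the set, 0.20 ± 0.25, and its libraries overlapped. In all, both iTeO (ES) libraries lay above both iTeO (iPS) libraries for 1 gene and below for 4, where 18.2% and 14.4% of tested genes did so, and 28 genes overlapped.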

How the data were processed

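The table the authors deposited gives unnormalized read counts for every gene in 10 libraries, made from stranded total RNA and sequenced as single-end reads. Per the labels, trimming was done with Trimmomatic and alignment with STAR 2.7.1a, against a joined human (GRCh38) and chicken (galGal5) genome, and featureCounts counted uniquely mapped reads. Reads that fitted both genomes equally were excluded, as were reads with several matches, so counts of conserved or multicopy genes can be too low. Every column was mapped to a library by its label (0 columns were left over). Chicken counts per library were between 7809002 and 11615474, and 3 counts correspond to at most 3.84e-05% of a library.

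CPM was computed on chicken genes alone. Shares carry 95% Wilson intervals. Fold changes and standard errors came from edgeR 4.0.16 in R 4.3.3 (TMM, filterByExpr by tissue, robust quasi-likelihood fit over all libraries, 3 tissues or 4 groups), with p-values for iTeO (ES) over iTeO (iPS) alone. The fit pools each gene's spread over all groups, although most genes of the set varied more in iTeO. Standard errors can thus be too small for contrasts with iTeO and too large for TeO over NCC. The test of iTeO (ES) over iTeO (iPS) was run on simulated data, in which the changed genes differed far more than any gene of the set did. That run therefore says nothing about differences as small as those of the set. Python 3.11.15 was used for shares and ranks. Genes were named by rule: the 8 highest by mean level, the 2 highest and 2 lowest in each tissue contrast, the 2 with the largest and the 1 with the smallest SD in iTeO, those nearest each threshold, and those with the 2 lowest p in iTeO (ES) over iTeO (iPS). The genes moving with the most counted gene were picked with their values in view. The set and the comparisons were chosen with earlier results of these data known.

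Alternatives were DESeq2 1.42.0, its size factors, no filter, the iTeO libraries alone, a replicate block, other thresholds, TMM scaling, totals with human counts or without the most counted gene, and each library left out. Symbols and sequences are not given, since 0 identifiers matched the reference table.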

Additional observations from a re-analysis of the deposited data

Results flagged for a closer look

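ENSGALG00000028749 had 2285 CPM in the second iTeO (ES) library, against 1894, 1907 and 1951 CPM in the other 3 iTeO libraries. The gap to the nearest library was 0.853 of the whole range, above the 95% critical value of Dixon's test for 4 libraries. Of 35 groups of 4 values examined in this way 1 stood out, and chance marks about 1 in 20. The other iTeO libraries were also above all TeO and NCC libraries for this gene.

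Counts on human genes, which were left out of CPM, made up 0.371% of all counts in the first iTeO (ES) library and 0.299% in the first iTeO (iPS) library. Both lie above the highest share in natural tissue, 0.137%. The other 2 iTeO libraries, at 0.129% and 0.124%, lie within the range of natural tissue.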

How the results depend on the processing

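Of 255 recomputed values 238 stayed within the spread between libraries or within 1.5 times the count, or kept their side of the test's threshold, and 17 moved. The 170 that left out a library are among the 238, although some small values shifted by more than 1.5 times: the median shift lay between −0.083 and −0.032 for iTeO over TeO and between −0.099 and −0.049 for TeO over NCC. The set grew to 103 genes at a mean of at least 500 CPM and shrank to 9 at 2000 CPM, and held between 32 and 35 genes when a library was left out. With the most counted gene left out of the library total it held 46 genes, 32 of them from the set. With TMM scaling it held 33, of which 31 were from the set. Without the most counted gene in the set and in the total, the share was 9.97% in iTeO, 11.95% in TeO and 12.0% in NCC. The median shift of the 33 genes between iTeO and TeO was −0.25 with TMM scaling, −0.24 with DESeq2 size factors and −0.17 without the most counted gene in the totals, and between iTeO and NCC it was −0.39, −0.38 and −0.25 in the same order. At an r of 0.9 in place of 0.8 the genes that moved together numbered 4 in place of 8, the most counted gene included. Leaving out a library gave 7 to 9 at an r of 0.8, counted in the same way.

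In iTeO (ES) over iTeO (iPS) 0 of the 33 genes were called in any of 17 settings, with adjusted p-values no lower than 0.123, while 0 to 332 of all tested genes were called. The lowest adjusted p and the highest count came from the fit without the second iTeO (ES) library. There the lone library of that group is assumed to vary like the other groups. Without the first iTeO (ES) library 111 of all genes were called, with the iTeO libraries alone 53 and with DESeq2 67. The replicate block left 0 genes of the set called and 1 of all genes, against 2 without it. Over all tested genes the deviations of same-numbered libraries had r = −0.111 for iTeO (ES) with iTeO (iPS), and 0.327, −0.235 and 0.336 for TeO with NCC, where the second TeO library correlated better with the third NCC library (0.326). Not every pair was above 0, so the numbers were not taken to pair the libraries. Within iTeO the 8 genes and the human share did split by number. With the numbers of the iTeO (iPS) libraries exchanged, an alternative added after the data were seen, the block again called 0 genes of the set and 1 of all. The spread, the shared deviations and the order of genes were also examined after the data were seen. With 2 libraries a group, small differences between iTeO (ES) and iTeO (iPS) could not be resolved.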
